A study of Mus musculus with 3 samples.

Results

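The PAR bZIP factors and their partners among the output genes of the circadian clock were followed in sorted mesangial cells of the adult mouse kidney. The genes were Dbp, Tef, Hlf, Nfil3, Bhlhe40, Bhlhe41, Ciart and Usp2, selected on their known roles with the values of these same 3 samples in view. All 8 were measured, among 18685 genes named on the arrays. For each gene the probe set was chosen by its mean over the samples, the highest among those with exactly 1 gene symbol. The study held 1 group of 3 samples, all from adult male CD-1 mice carrying the transgene Tg(Meis1-EGFP)FO156Gsat, in which Meis1 regulatory sequence on a bacterial artificial chromosome drives a green fluorescent protein. Each sample came from 1 kidney and none was pooled. Glomeruli were freed from the cortex with collagenase, caught on a mesh and trypsinised, and fluorescent cells were sorted, so that the material was glomerular and extraglomerular mesangium as far as Meis1-driven fluorescence marks it. The labels give no treatment, no age beyond adult and no time of day. Whether the kidneys belonged to different mice is not said, so the spread between samples may be technical in part. With 1 group there was no contrast to test, and all values below are descriptions.

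The circadian clock is a transcriptional loop in which CLOCK and BMAL1 (gene Arntl) activate genes through E-box sequences, while PER, CRY and REV-ERB proteins (genes Nr1d1 and Nr1d2) hold them back. Output genes pass the rhythm on. The PAR bZIP activators DBP, TEF and HLF bind D-box sequences that the repressor NFIL3, also called E4BP4, can occupy as well, and in mouse liver the rhythm of Nfil3 runs opposite to that of Dbp. In the kidney, PAR bZIP factors and USP2 are known mainly for their part in daily rhythms of tubular transport.

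All values are the deposited log2 signals of Affymetrix probe sets, so a difference of 1 is a doubling. The silent-gene threshold of an array was the 95th percentile of 1269 probe sets of gene families taken as mostly silent in the kidney. These are the keratin-associated proteins and the olfactory, vomeronasal and trace amine receptors. A gene was called above the threshold only if every array agreed. The thresholds were 7.48, 7.46 and 7.40 on the arrays of samples 1, 2 and 3, and the array medians lay between 7.53 and 7.56. Many probe sets carried the same value on several arrays. Among the members this held for Usp2, with 1 value on all 3 arrays, as for 51.1% of named genes, and for Dbp, with the same value in samples 1 and 2, as for 27.6% of named genes on exactly 2 arrays. An SD of 0 is therefore no measure of error. In bulk RNA, fewer cells of a type and less RNA per cell cannot be told apart.

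Dbp, Tef and Hlf, the 3 PAR bZIP activators, were above the threshold in every sample, and each had its lowest value in sample 3. Dbp, whose protein is the rhythmic D-box activator first found at the albumin promoter, had 8.98, 8.98 and 7.89 in samples 1, 2 and 3, a mean of 8.62 ± 0.63 (SD, n = 3). Sample 3 lay below both other samples by 1.09, a 2.13-fold difference, and samples 1 and 2 carried the same value. Tef, the thyrotroph embryonic factor gene, had 8.59, 8.52 and 8.02, with a mean of 8.38 ± 0.31 (SD, n = 3). Its value in sample 3 was 0.499 below the nearer of the others, a 1.41-fold difference. Hlf, the hepatic leukemia factor gene, had 10.26, 10.40 and 9.72, with a mean of 10.13 ± 0.36 (SD, n = 3). Here sample 3 lay 0.54 below the nearer of the others, a 1.46-fold difference. For these 3 genes samples 1 and 2 lay at most 0.13 apart, so the spread around each mean came almost entirely from sample 3.

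Tef is listed with 2 start sites in RefSeq (GRCm38.p6), and the window of each holds an E-box, the element bound by CLOCK and BMAL1. The first lies at chr15:81802423-81802722, plus strand, and the second at chr15:81811164-81811463, plus strand. The Hlf window, at chr11:90390868-90391167, minus strand, holds a cyclic AMP response element (CRE) that ends 2 bases before the start. Each window runs from 250 bases before the start to 50 bases after it, 5′ to 3′ on the strand of the gene, and the capitals mark the matches.
Tef start 1: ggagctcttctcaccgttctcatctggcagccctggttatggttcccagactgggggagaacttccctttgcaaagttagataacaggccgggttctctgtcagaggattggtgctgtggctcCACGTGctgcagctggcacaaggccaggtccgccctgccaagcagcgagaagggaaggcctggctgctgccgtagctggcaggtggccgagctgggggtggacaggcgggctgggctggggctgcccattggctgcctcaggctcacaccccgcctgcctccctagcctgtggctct
Tef start 2: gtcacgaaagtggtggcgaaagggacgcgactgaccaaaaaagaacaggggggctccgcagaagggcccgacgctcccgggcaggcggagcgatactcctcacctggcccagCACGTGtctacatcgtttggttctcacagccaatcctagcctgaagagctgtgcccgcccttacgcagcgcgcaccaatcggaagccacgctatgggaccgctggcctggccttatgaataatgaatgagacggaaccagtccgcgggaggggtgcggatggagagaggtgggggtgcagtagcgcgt
Hlf: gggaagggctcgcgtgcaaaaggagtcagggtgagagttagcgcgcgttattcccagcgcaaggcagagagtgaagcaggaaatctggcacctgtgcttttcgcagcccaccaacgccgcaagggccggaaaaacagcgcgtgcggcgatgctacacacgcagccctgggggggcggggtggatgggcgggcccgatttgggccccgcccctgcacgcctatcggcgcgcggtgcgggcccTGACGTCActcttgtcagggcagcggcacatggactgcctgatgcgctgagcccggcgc

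Nfil3, which encodes the bZIP repressor that competes for D-box sites, had the opposite pattern and the widest spread of the 8 genes. Its values were 7.38, 7.50 and 9.24 in samples 1, 2 and 3, with a mean of 8.04 ± 1.04 (SD, n = 3). In sample 1 it lay under the threshold, in sample 2 within 0.04 of it, and in sample 3 it stood 1.83 above it. Sample 3 exceeded the nearer of the others by 1.74, a 3.34-fold difference. As the values in samples 1 and 2 were close to background, the size of this difference is uncertain.

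The Nfil3 window at chr13:52980990-52981289, minus strand holds, on the strand opposite to the gene, the core of the element at which ROR activators and REV-ERB repressors compete. Its match starts 12 bases before the start site. It is shown because Nfil3 was the 1 member higher in sample 3.
Nfil3: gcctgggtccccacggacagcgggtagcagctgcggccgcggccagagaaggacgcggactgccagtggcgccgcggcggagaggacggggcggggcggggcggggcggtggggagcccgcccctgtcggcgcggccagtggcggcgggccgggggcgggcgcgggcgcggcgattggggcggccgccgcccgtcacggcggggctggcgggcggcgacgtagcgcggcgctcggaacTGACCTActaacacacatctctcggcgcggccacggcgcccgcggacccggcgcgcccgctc

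**Figure D1:**
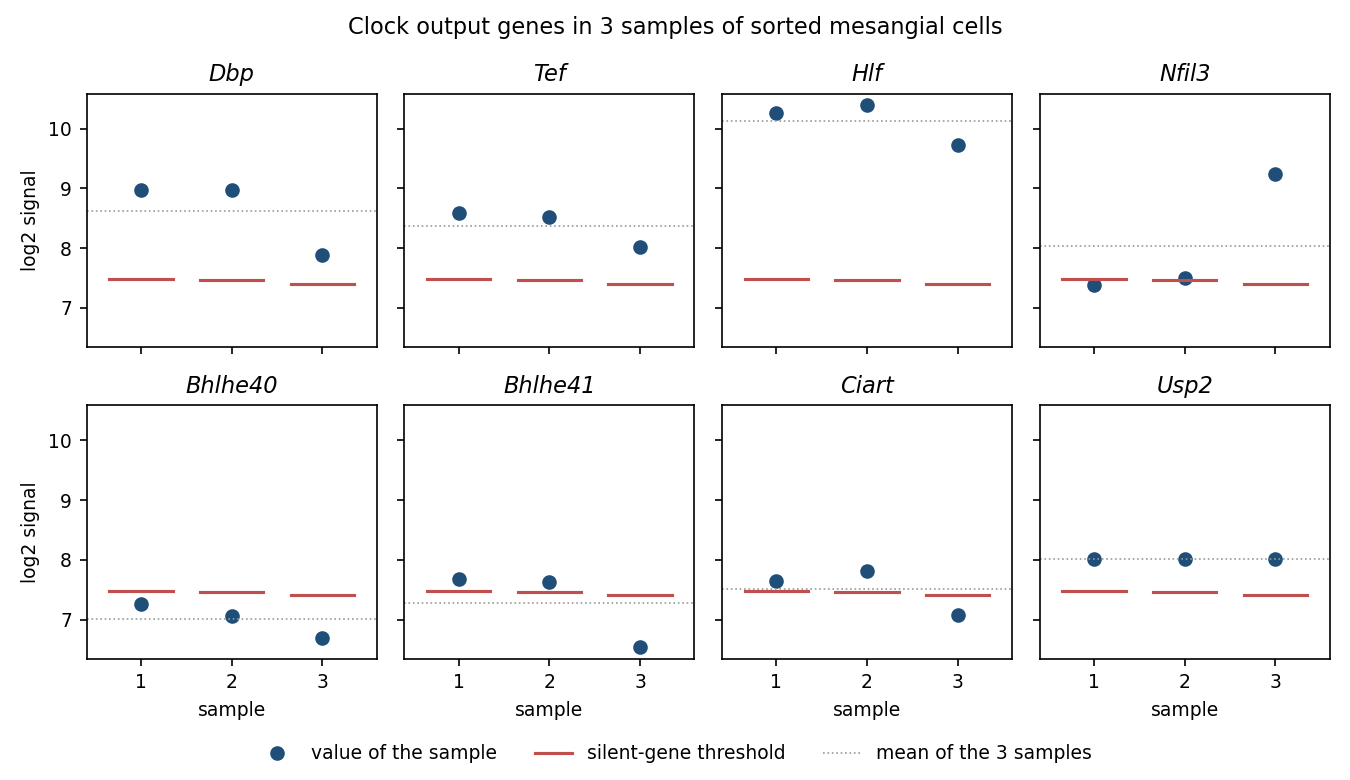
Log2 signal of the 8 clock output genes (vertical axis, the same scale in every panel) in samples 1, 2 and 3 (horizontal axis). Points are single samples, red bars the silent-gene threshold of that array and dotted lines the mean. Dbp, Tef, Hlf, Bhlhe40, Bhlhe41 and Ciart are lowest in sample 3, Nfil3 is highest there at 9.24, and Usp2 is at 8.02 in each sample.

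The members that repress E-box transcription, Bhlhe41, Bhlhe40 and Ciart, lay near or under the threshold, and they too were lowest in sample 3. Bhlhe41, the gene of the helix-loop-helix repressor DEC2, had 7.68, 7.63 and 6.54 in samples 1, 2 and 3, with a mean of 7.28 ± 0.65 (SD, n = 3). It passed the threshold in samples 1 and 2 and lay 0.87 under it in sample 3, where it was 1.09 below the nearer of the others. Bhlhe40, the gene of the related repressor DEC1, had 7.26, 7.05 and 6.70, with a mean of 7.002 ± 0.28 (SD, n = 3). No sample brought Bhlhe40 above the threshold, so its differences lie within the range of genes taken as silent. Ciart, also called Chrono, encodes a repressor that acts on BMAL1 and CLOCK, and had 7.65, 7.81 and 7.08, with a mean of 7.51 ± 0.38 (SD, n = 3). It passed the threshold in samples 1 and 2 only. Ciart was the 1 member with 2 probe sets, and the other gave 7.49, 7.55 and 7.31. Both put sample 3 lowest, by 0.57 on the probe set used and by 0.18 on the other.

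The promoter windows of Ciart and Bhlhe41 hold E-boxes and are shown for that reason. In the Ciart window, at chr3:95882179-95882478, minus strand, the E-box occurs 3 times. Of 32851 windows of this length in the RefSeq table, 29 (0.0883%) hold it 3 or more times. The Bhlhe41 window, at chr6:145865371-145865670, minus strand, holds it in 1 place.
Ciart: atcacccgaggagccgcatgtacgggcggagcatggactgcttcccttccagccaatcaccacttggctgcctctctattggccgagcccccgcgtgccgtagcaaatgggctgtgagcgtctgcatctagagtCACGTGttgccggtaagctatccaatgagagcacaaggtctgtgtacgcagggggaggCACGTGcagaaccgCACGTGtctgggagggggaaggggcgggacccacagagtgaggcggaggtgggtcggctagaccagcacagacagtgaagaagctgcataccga
Bhlhe41: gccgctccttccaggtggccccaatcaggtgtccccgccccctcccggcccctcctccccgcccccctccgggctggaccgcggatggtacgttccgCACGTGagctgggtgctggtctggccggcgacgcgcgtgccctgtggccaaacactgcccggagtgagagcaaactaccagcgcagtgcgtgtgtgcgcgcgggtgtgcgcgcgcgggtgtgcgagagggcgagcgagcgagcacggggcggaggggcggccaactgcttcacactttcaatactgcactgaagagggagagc

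Across the windows of 7 members found in the table, the E-box (CACGTG) occurred in those of Tef, Bhlhe41 and Ciart, the ROR element (TAGGTCA) in that of Nfil3 and the CRE (TGACGTCA) in that of Hlf. The D-box, bound by the PAR bZIP factors themselves, was searched only in the form TTATGNAA, which matched in none of them. Other forms of the site were not searched. Dbp and Usp2 had no match to any of the 4 motifs. Both strands were searched and no matches overlapped. Over all 32851 windows, 7.15% held the E-box, 3.38% the D-box, 2.61% the ROR element and 1.79% the CRE. Counted by gene, as the members are, the shares over 27025 genes were 8.09%, 3.99%, 2.97% and 2.03% in the same order. A match is a description of the letters and no evidence of binding.

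**Figure D2:**
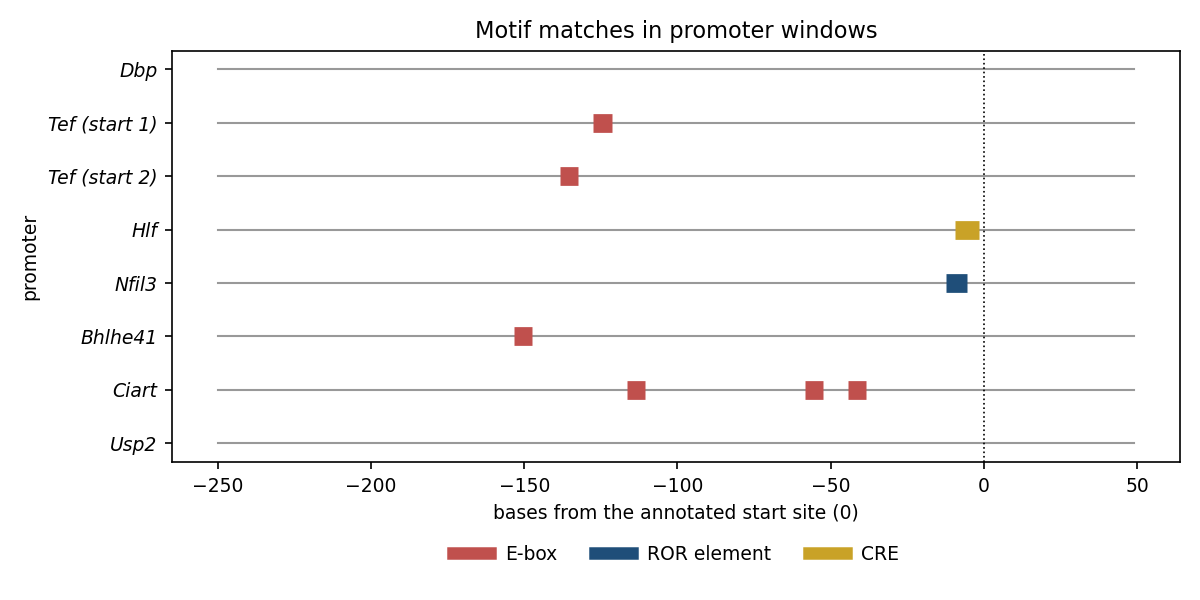
Matches to the E-box, the ROR element and the CRE in the promoter windows of 7 members, with bases from the annotated start site on the horizontal axis and 1 line for each window. Ciart carries 3 E-boxes, Tef 1 at each of 2 starts and Bhlhe41 1, while the ROR element of Nfil3 and the CRE of Hlf lie within 12 bases of the start.

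Usp2, the gene of a ubiquitin-specific protease under clock control, had 8.02 in each of the 3 samples. It was above the threshold in all of them, by at most 0.62. Its value did not follow sample 3, and as the deposited number is identical on all arrays, no spread could be read from it.

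Of the 8 members, Dbp, Tef, Hlf and Usp2, that is 4, were above the threshold on all 3 arrays, where the share over all named genes was 58%. Hlf alone passed the threshold raised by 1 on every array, and 32.7% of named genes did so. Without sample 3, Dbp and Tef passed it too, which made 3 members. Without sample 3, Bhlhe41 and Ciart passed the unraised threshold as well, which made 6 of 8, and without sample 1 it was passed by 5.

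A range of at least 0.5 between the highest and the lowest sample was reached by 7 of the 8 members, against 641 of 18685 named genes (3.43%). The share was 4.33% among named genes above the threshold and 2.18% among those not above it. The median range of the 8 members was 0.70, while that of all named genes was 0 and that of named genes above the threshold 0.03. Bhlhe40, at 0.56, and Tef, at 0.57, were the members just past the limit, and Usp2, at 0, was the 1 outside it. A range as wide as that of Dbp, 1.09, was found in 0.487% of named genes. The ranges of Nfil3, 1.85, Bhlhe41, 1.14, and Ciart, 0.73, had their low end under the threshold and are uncertain in size. That of Bhlhe40 lay under it in every sample. Of the 7, only Dbp, Tef and Hlf were above the threshold on all arrays. The members were named with these values known, so the shares describe them and test nothing. Without sample 3, none of the 8 reached a range of 0.5, and the widest difference between samples 1 and 2 was 0.20, in Bhlhe40.

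Sample 3 was at least 0.5 below both other samples in 4 members, Dbp, Hlf, Bhlhe41 and Ciart, against 43 named genes in all (0.23%). Hlf, with a gap of 0.54, lay just inside this limit and Tef, with 0.499, just outside it. Ciart met it on the probe set used, under the threshold in sample 3, while its other probe set had a gap of 0.18. Sample 3 was at least 0.5 above both others in 1 member, Nfil3, against 56 named genes (0.3%). No member had sample 1 or sample 2 apart by as much in either direction. Of all named genes, 100 (0.535%) had sample 1 lower and 103 (0.551%) had it higher. For sample 2 the numbers were 44 (0.235%) and 45 (0.241%). With 8 members, a count of none does not set them apart from these shares. By the size of the gap below, Dbp, above the threshold in all samples, was 8th among all named genes. The genes ahead of Dbp include some that were under the threshold in sample 3, such as Snora20 at 5.61. No rank is given for Bhlhe41 and Nfil3, whose gaps were measured against signals under or close to the threshold.

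**Figure D3:**
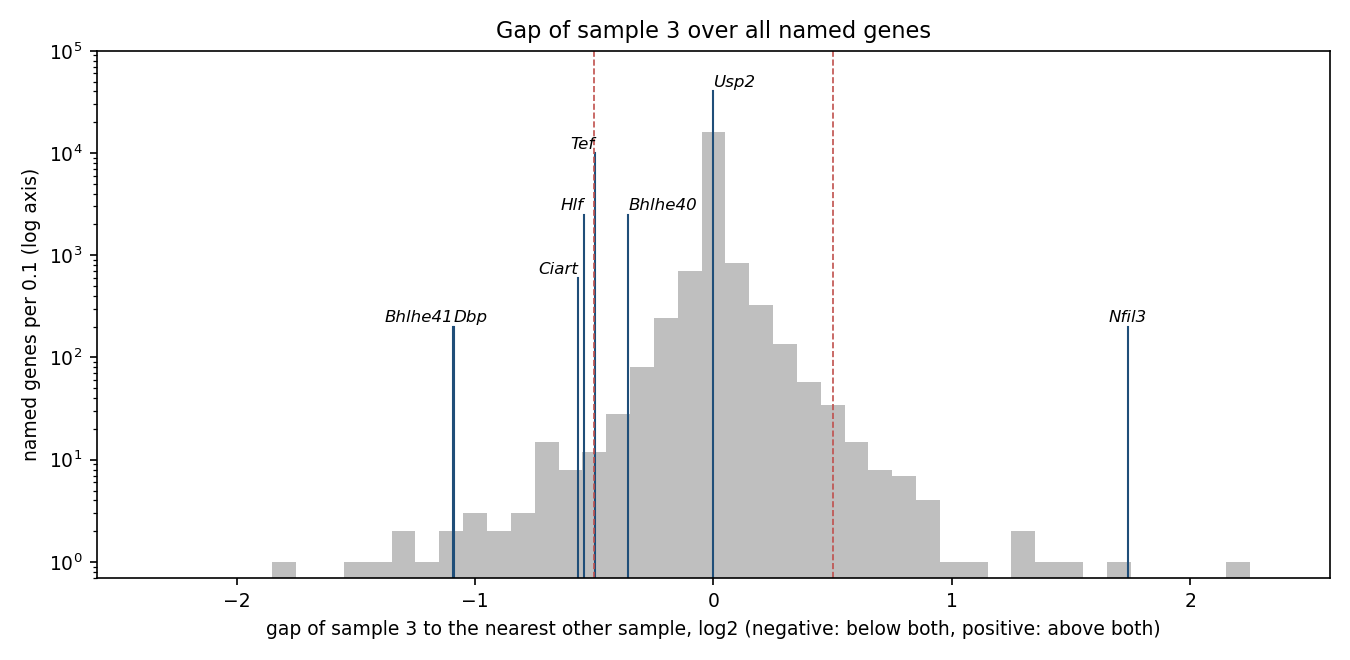
Number of named genes (vertical axis, log scale) by the gap between sample 3 and the nearest other sample (horizontal axis, log2, negative where sample 3 is below both and positive where it is above both, 0 where it lies between or equals them). Blue lines mark the 8 members and dashed lines a gap of 0.5. Dbp and Bhlhe41 lie at 1.09 below, Nfil3 at 1.74 above, and most genes close to 0.

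Of the 15 core clock genes measured, 4 had a range of at least 0.5, against 3.43% of all named genes, and 5 had 1 value on all arrays. Arntl, the BMAL1 gene, had 7.76, 7.81 and 9.22 in samples 1, 2 and 3, and Nr1d1, for the repressor REV-ERB alpha, had 11.45, 11.56 and 10.17. Nr1d2, for REV-ERB beta, had 10.36, 10.50 and 9.63, and the period gene Per3 had 8.44, 8.44 and 7.82. These are the 4 genes, and sample 3 was lower in Nr1d1, Nr1d2 and Per3, as in Dbp, and higher in Arntl, as in Nfil3. The other period genes showed little spread, with Per1 at 8.39, 8.44 and 8.27 and Per2 at 7.82, 7.82 and 7.81. Clock, the partner of Arntl, had 10.45, 10.54 and 10.75.

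**Figure D4:**
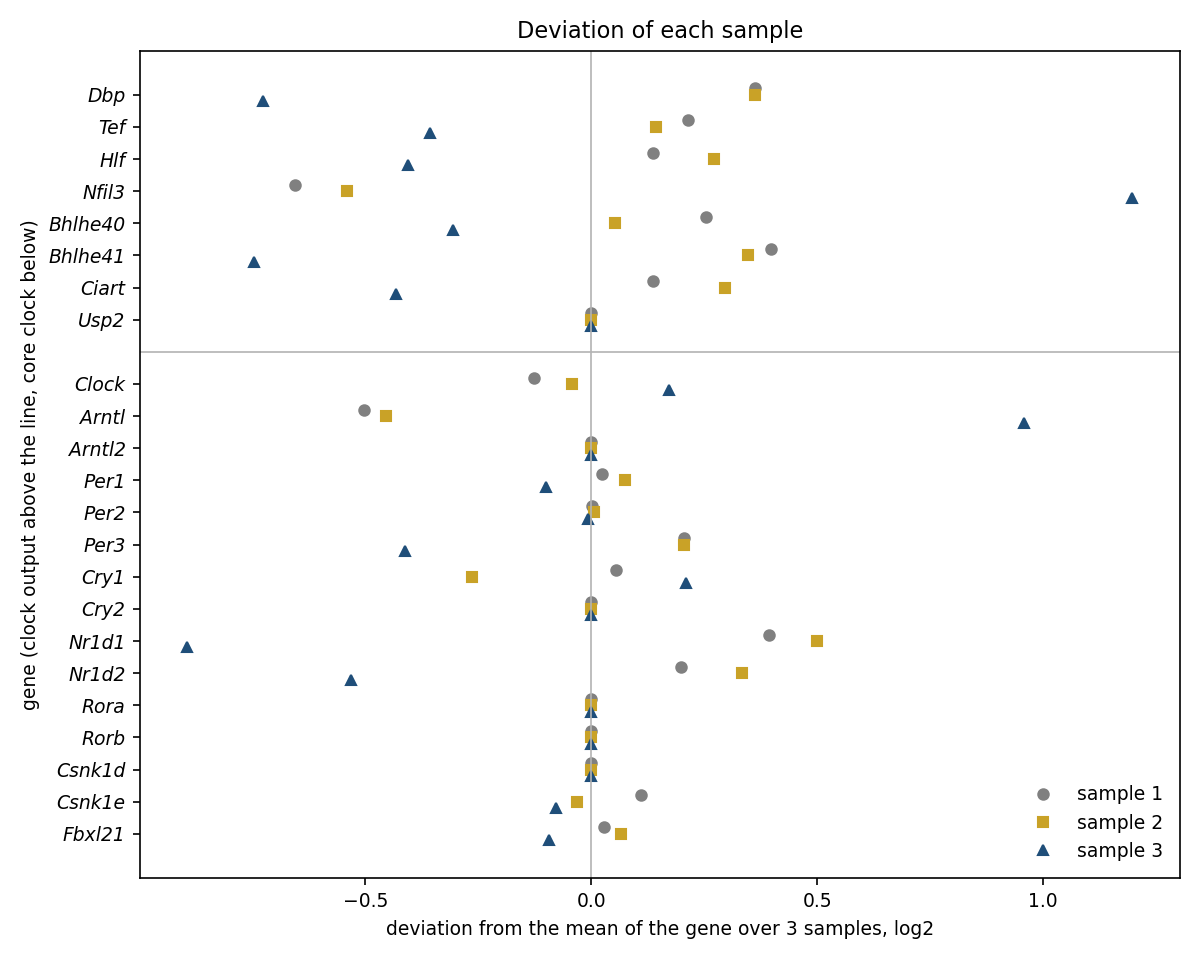
Deviation of samples 1, 2 and 3 (symbols) from the mean of each gene over the 3 samples, in log2 on the horizontal axis, for the 8 clock output genes above the line and 15 core clock genes below it. Sample 3 lies to the right in Nfil3 and Arntl and to the left in Dbp, Bhlhe41, Nr1d1 and Nr1d2, while Usp2 and 5 core clock genes have 1 value on all 3 arrays.

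The genes whose deviations over the 3 samples lay nearest to those of Nfil3, among 10842 named genes above the threshold, were Hsph1, Arntl, Htr1b, Sh2d4a and Ociad2. Likeness was the Euclidean distance between deviations from each gene's own mean, which was 0.28 for the chaperone gene Hsph1 and 0.30 for Arntl. For Dbp, chosen after the values were seen, the nearest were Tent5a, Mir505, Nr1d1, Sympk and Umod, with a distance of 0.17 for Tent5a and 0.22 for Nr1d1. Over 3 samples such likeness is loose and adds little to the gap of sample 3. The genes nearest to Nfil3 were all among those with the largest gaps above, and those nearest to Dbp among those with the largest gaps below.

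Genes reported downstream of the PAR bZIP factors, most of them from studies of mouse liver, were also read. Of the 8 measured, 3 were above the threshold and none had a range of at least 0.5. Over all named genes the shares were 58% and 3.43%. With 8 genes, a count of none does not set them apart from the latter share. Pdxk, the pyridoxal kinase gene, varied most, with 8.44, 8.29 and 8.25 in samples 1, 2 and 3. The drug efflux pump gene Abcb1a had 10.41, 10.58 and 10.58, and the haem synthesis gene Alas1, named after its value was seen, 8.27 in each sample. Aadac, an esterase gene of the liver, lay under the threshold at 5.50 in each. In 6 of the 8 genes the value was the same on all arrays, which limits what can be seen.

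Of 7 genes through which the clock is known to act in the kidney, 4 were above the threshold and Edn1, the endothelin-1 gene, alone had a range of at least 0.5, with 8.22, 7.96 and 8.50. Sgk1, a kinase gene of the aldosterone response, had 9.26, 9.32 and 9.26, and the sodium channel gene Scnn1a lay under the threshold at 6.41. All 5 genes of proteins linked to USP2 were above the threshold, and none had a range of 0.5. Over all named genes, 58% were above the threshold and 3.43% had a range of at least 0.5. Among the genes linked to USP2, the cyclin D1 gene Ccnd1 had 10.23, 10.58 and 10.62. Nedd4l, a ubiquitin ligase gene acting on the sodium channel, had 7.50 in each sample.

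The C/EBP family, bZIP factors related to the PAR group, was above the threshold in 6 of 6 measured genes, with no range of 0.5. The shares over all named genes were 58% and, for a range of at least 0.5, 3.43%. Cebpg had 10.38, 10.20 and 10.19, Cebpa, which varied most, 10.05, 9.73 and 10.09, and Cebpd 7.60 in each sample. Sample 3 was not 0.5 apart from both others in any of them.

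Nfil3, Bhlhe40 and Bhlhe41 are also known to respond to glucocorticoids, hypoxia or stress, so lists of such genes were set beside them. Of all named genes, 3.43% had a range of at least 0.5. Of 8 glucocorticoid-linked genes, Zbtb16 alone had a range of at least 0.5, with 7.89, 8.40 and 8.22, and the receptor gene Nr3c1 had 10.38, 10.18 and 10.60. Of 10 hypoxia-induced genes 2 reached that range. The glucose transporter gene Slc2a1 had 9.90, 9.33 and 9.44, and Adm, the adrenomedullin gene, named after its values were seen, 7.53, 7.63 and 8.04. Pdk1, a kinase gene of the same response, lay under the threshold at 7.08, 7.10 and 6.94. None of 16 immediate early genes had a range of 0.5. Among these Jun varied most, with 9.66, 9.51 and 9.91, while Dusp1 had 11.02, 10.78 and 10.92 and Klf4 7.27 in each sample.

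Other genes moved with sample 3 as well, and are given as measured, named after their values were seen. The chaperone genes Hsph1, with 8.35, 8.18 and 9.82, Hspb1, with 8.48, 8.48 and 9.40, and Hsp90aa1, with 11.96, 11.72 and 12.56, were highest in sample 3. The interferon-induced chemokine gene Cxcl10, with 9.62, 10.39 and 8.21, and the cold-inducible gene Cirbp, with 10.33, 10.30 and 9.60, were lowest there. Their part in the values of the clock output genes was not tested.

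Among 20 tubule markers, 4 had a range of at least 0.5 and 10 had 1 value on all arrays. Over all named genes the shares were 3.43% and 51.1%. The mean log2 value of 10 proximal tubule genes was 7.46, 7.34 and 7.18 in samples 1, 2 and 3, and 4 of them were above the threshold on all arrays. Of the 10 genes, 2 had a range of at least 0.5, Kap with 8.44, 8.51 and 7.17 and Miox with 7.40, 6.15 and 6.13. Miox was under the threshold in every sample. Kap was under it in sample 3, so the size of its difference is uncertain. The transporter gene Slc34a1 had 8.24, 8.25 and 7.96, lowest in sample 3 like Kap, and Slc22a12, Hnf4a and Slc5a2 had 8.36, 8.04 and 7.81 in each sample, all above the threshold. Lrp2 and Cubn lay under it at 6.79 and 6.21, Slc22a6 at 7.25 and Fbp1 at 6.06, in each sample. For the loop of Henle with the distal and collecting tubule, the mean of 10 genes was 7.45, 7.55 and 7.40, with 7 above the threshold, and 2 had such a range, Umod with 9.51, 9.18 and 8.22 and Calb1 with 7.72, 8.66 and 8.49. Kap and Umod were thus lowest in sample 3, and the other two had sample 1 apart. The part of tubule RNA in the values of Dbp and the other members was not tested. All 13 mesangial markers were above the threshold raised by 1 and none had a range of 0.5, with means of 11.72, 11.73 and 11.68. Their median range was 0.104, against 0 for the proximal tubule genes and 0.058 for the other tubule list. The means were 8.46, 8.41 and 8.50 for 7 podocyte genes and 9.15, 9.08 and 9.20 for 11 endothelial genes. Single genes lay far from these means. The podocyte list ran from Ptpro, at 6.70, 6.70 and 6.84, to Cd2ap, at 11.21 in each sample. The endothelial list ran from Tie1, at 7.55 in each sample, to Eng, at 11.32, 10.98 and 11.21. In these lists, 5 podocyte and all 11 endothelial genes were above the threshold, with 2 and 7 above it raised by 1. For 8 macrophage genes the means were 6.74, 6.72 and 6.75, with 3 above the threshold. For 5 lymphocyte genes they were 6.88, 6.92 and 6.90, with 1 above it. Over all named genes, 58% were above the threshold and 32.7% above it raised by 1. Counts near these shares do not set a list apart. None of these podocyte, endothelial, macrophage and lymphocyte genes had a range of 0.5.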

How the data were processed

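Sorted mesangial cells of 3 kidneys were measured, 1 Affymetrix array each, after 1 round of amplification (per the labels' protocols). Per the submitters' processing notes, the authors used Affymetrix Expression Console, and what they deposited are log2 probe set signals. Its version, background correction and summary step are not given in the sources used, and base 2 was inferred from the range of the values. They were used as deposited, with Python 3.11.15, numpy 2.4.6 and pandas 2.3.3. Of 35557 probe sets, 21789 had exactly 1 gene symbol in the platform annotation and 21698 of these were updated by Entrez number with RefSeq (GRCm38.p6). A gene was named by its probe set of highest mean. Probe sets of different genes differ in affinity, so values do not rank genes by amount.

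The members, lists and limits were chosen with earlier results of these data known. The rule names all members, the genes of highest mean, lowest mean and widest range of each other list (cell type markers apart, of which those shown were chosen after their values were seen), any core clock gene, and the 5 genes nearest in pattern to the member of widest range. Cyp2a4 and Cyp2a5 share a probe set and were not used. Some other genes of the lists are not analysed here. No group comparison or test was possible. The number of arrays limits the precision.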

Additional observations from a re-analysis of the deposited data

How the results depend on the processing

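The count of members with a wide range rested on sample 3. Without 1 sample in turn, the number of members with a range of at least 0.5 lay between 0 and 7, with 0 when sample 3 was left out. The number above the threshold raised by 1 lay between 1 and 3 (3 without sample 3, with Dbp and Tef beside Hlf), and was 2 when the mean of the arrays was used. Raising the minimum range to 1 left 3 members, Dbp, Nfil3 and Bhlhe41. Centring the arrays on their medians or on the silent probe sets also gave 7, and the median over probe sets gave 6. The number above the threshold, 4 in all samples, was 6 at the 90th percentile, for the mean of the arrays and without sample 3, 5 without sample 1 and 4 without sample 2. The number with 1 sample apart was 5, with 7 at a gap of 0.3 and 4 with the median over probe sets, alternatives chosen after seeing the data. No paired analysis was possible because there was 1 group. With 3 arrays and many values shared between arrays, small differences cannot be told from processing.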
